A study of Mus musculus with 3 samples.

Results

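The 8 genes described here encode the IL-12 family of cytokines and the IL-10 axis: the subunits Il12a, Il12b, Il23a, Il27 and Ebi3, the cytokine Il10, and the receptor chains Il10ra and Il10rb. They were taken by gene name from the 36870 gene names on the array, and 9 probes of 60 bases stood for them. The rule used names and not values, but it was set with earlier results of these data known. RNA came from RAW264.7 cells, a mouse macrophage line, and each of 3 conditions was measured on 1 array. In the LPS group, macrophages without lactobacilli were stimulated for 3 h with lipopolysaccharide (LPS), the TLR4 agonist. In the LOC1+LPS and LOC3+LPS groups, the cells first received Lactiplantibacillus plantarum LOC1 or LOC3, a pair of strains from fresh tea leaves, and then the same LPS stimulation. All 3 groups therefore carried LPS, the labels give 12 h of lactobacilli, and the array of unchallenged macrophages was not analysed here. With 1 array per condition there is no replicate check and no test, so each difference compares arrays rather than conditions. Values given after LOC1 or after LOC3 are those of the arrays with LOC1 or LOC3 and then LPS.

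Cytokines of the IL-12 family are built from a pair of chains, and chains are shared between them. The p40 chain, encoded by Il12b, pairs with the p35 chain of Il12a to form IL-12, a cytokine that drives Th1 responses, and with the p19 chain of Il23a to form IL-23, which sustains Th17 cells. The chain encoded by Ebi3 pairs with the p28 chain of Il27 to form IL-27, which can restrain inflammation, and with p35 to form IL-35. IL-10 is the main cytokine by which activated macrophages limit their own response, and it signals through a receptor made of the Il10ra and Il10rb chains.

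The probes lie on the mouse genome at these positions of build mm9, all within transcripts of the named genes. The Il12a probe is at chr3:68498108-68498167 and the Il12b probe at chr11:44226781-44226840, both on the plus strand. The Il23a probe is at chr10:127733766-127733825 and the Il27 probe at chr7:133736137-133736196, both on the minus strand. The Ebi3 probe is at chr17:56096309-56096368 and the Il10 probe at chr1:132920943-132921002, on the plus strand. Il10ra has a pair of probes on the minus strand, at chr9:45061922-45061981 and chr9:45062649-45062708, and the Il10rb probe is at chr16:91425892-91425951 on the plus strand.

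A pair of probe sequences is shown because the partner chains of IL-12 and IL-27 rest on them. The Il12a probe starts at base 302 of its transcript and gave no signal well above background. The Il27 probe starts at base 196, and the 20 capital letters are complementary to the reverse primer that the study used for IL-27 in qPCR, so that 20 of the 21 bases of that primer lie in the stretch that the probe reads. The study's primers for IL-12p40 and IL-10 share no such stretch with the probes of Il12b and Il10.
Il12a probe: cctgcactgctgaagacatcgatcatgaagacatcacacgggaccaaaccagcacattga
Il27 probe: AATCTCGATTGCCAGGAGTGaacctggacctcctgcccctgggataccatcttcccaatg

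The 250 bases before the start sites of Il12b and Ebi3 are shown because these chains fell together after LOC1 while their partners Il23a and Il27 did not. They come from RefSeq with coordinates of GRCm38.p6, in a table that held promoters for 3 of the 8 genes (Il12a, Il12b and Ebi3). The Il12b stretch is chr11:44399813-44400062 and the Ebi3 stretch is chr17:55952373-55952622, both on the plus strand. Capitals mark a match to the NF-kB motif, at positions -44 to -35 from the Ebi3 start site, which reads as a match on both strands and is 1 site.
Il12b promoter: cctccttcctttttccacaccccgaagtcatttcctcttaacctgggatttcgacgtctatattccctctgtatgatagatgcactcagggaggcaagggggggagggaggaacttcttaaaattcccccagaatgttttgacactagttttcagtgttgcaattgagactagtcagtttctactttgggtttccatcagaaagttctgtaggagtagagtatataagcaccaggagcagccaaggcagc
Ebi3 promoter: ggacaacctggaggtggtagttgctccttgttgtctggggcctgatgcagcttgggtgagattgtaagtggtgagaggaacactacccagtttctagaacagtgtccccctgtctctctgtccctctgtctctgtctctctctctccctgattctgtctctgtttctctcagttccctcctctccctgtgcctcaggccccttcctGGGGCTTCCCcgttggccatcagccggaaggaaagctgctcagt
The motifs searched for on both strands were NF-kB, C/EBP (TTNCNNAA), AP-1 (TGANTCA), an interferon response type (GAAANNGAA), TATAAA and the cyclic AMP response element (TGACGTCA). The letters of the other 5 were not found in either stretch. Promoters with a match make up 7.25% of the 32851 promoters of that table for NF-kB, 36.8% for C/EBP, 6.75% for AP-1, 7.13% for the interferon type, 12.4% for TATAAA and 1.55% for the cyclic AMP element. A match is a description of the letters and not a site shown to be bound, and a stretch without a match may hold sites of other letters.

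The intensity of a spot is its background-subtracted brightness. For comparison it was taken on the log2 scale minus the 75th percentile of intensities on its array, which was 555 on the LPS array, 513 after LOC1 and 516 after LOC3. Between 47.8% and 51.9% of the probes were well above background, and no spot was saturated. Probes printed 10 times on each array gave a technical standard deviation (SD) of a log2 difference of 0.06 for bright probes and of 0.28 after LOC1 and 0.31 after LOC3 for dim ones, whose mean log2 level over the 3 arrays is over 1 below the 75th percentile. Of the 7 genes compared, only Il23a falls among the dim ones. Il12b counts as bright through its LPS signal, and on the LOC1 and LOC3 arrays it was as weak as dim probes, so that its bright SD may be too small. This SD covers the printing and reading of the array and not the spread between cultures. Genes past 2-fold were counted as higher or lower: after LOC1, 2.49% of 20018 genes were higher than after LPS alone and 3.81% were lower, and after LOC3, 2.97% of 19789 genes were higher and 3.18% were lower. The higher genes thus made up 39.6% of those past 2-fold after LOC1 and 48.3% after LOC3, shares that were 65.2% and 68.7% when arrays were scaled to their median, 50.7% and 58.0% after quantile normalization, and 50.6% and 61.4% after normexp background correction.

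Of the 8 genes, 7 were well above background on all 3 arrays and Il12a on none. With LOC1, 3 of the 7 fell past 2-fold (Il12b, Ebi3 and Il10) and 0 rose. With LOC3, 1 of the 7 fell (Il12b) and 0 rose. In each comparison 5 of the 7 differences were below 0, and Il23a and Il27 were the 2 above it. The median over the 7 genes was -0.29 after LOC1 and -0.12 after LOC3 on the log2 scale, against 0.00 and 0.03 over all genes compared.

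**Figure D1:**
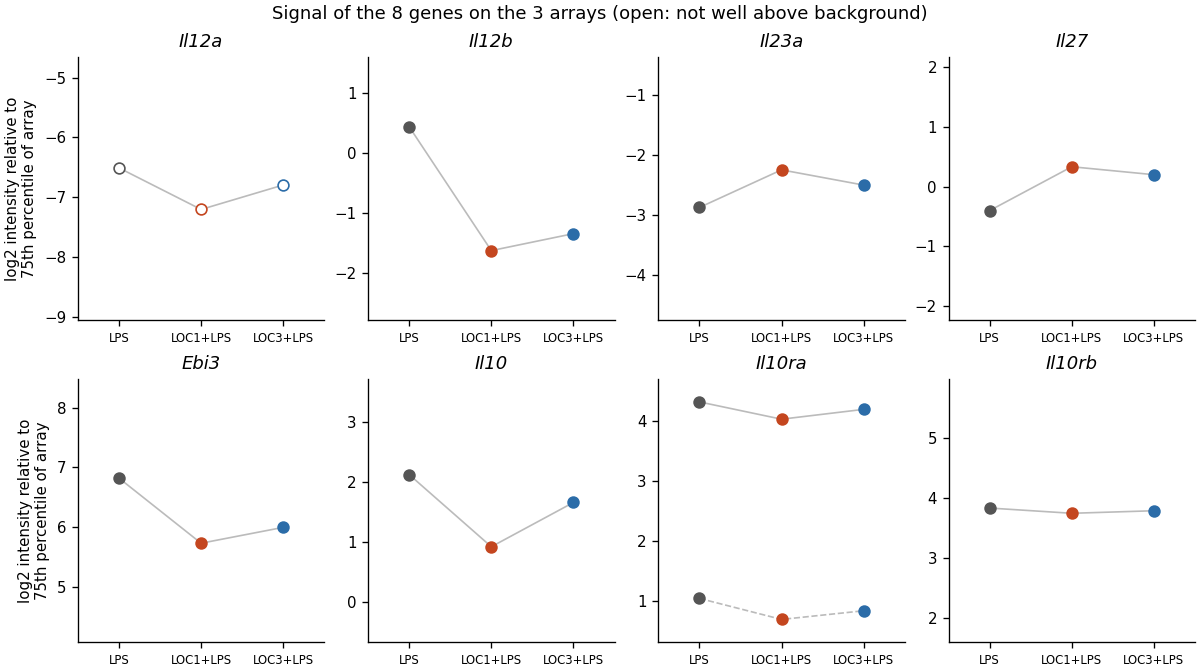
Signal of each of the 8 genes on the LPS, LOC1+LPS and LOC3+LPS arrays, as log2 intensity minus the 75th percentile of all spots, with 1 point per probe and array and the same span in every panel. Open points are not well above background, the dashed line joins the dimmer Il10ra probe, and the steepest step is that of Il12b, from 0.44 after LPS to -1.63 after LOC1.

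Il12b, the p40 chain common to IL-12 and IL-23, had the largest difference of the 7 genes with either strain. Its intensity was 754 after LPS, 166 after LOC1 and 203 after LOC3. The LPS array was high and both arrays with lactobacilli were low. Relative to the LPS array Il12b fell by 2.07 (log2) after LOC1 and fell by 1.79 after LOC3, which is 4.20-fold and 3.45-fold lower. Among all genes compared, 0.475% were lower still after LOC1 and 0.470% after LOC3. It stayed past 2-fold with both strains under the 9 alternative settings that recomputed it, several of which could not change its value. Both folds exceed 3-fold. Here and for the other genes, fewer expressing cells and less RNA per cell cannot be told apart.

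Il12a, the p35 chain that completes IL-12, had an intensity of 6.09 after LPS, 3.48 after LOC1 and 4.65 after LOC3. None of these was well above background, where the lowest intensity called so was 16.3, 14.5 and 19.8. The arrays therefore give no difference for p35, and for IL-12 and IL-35 only 1 chain of the pair was measured.

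Il23a, the p19 chain that makes IL-23 with p40, did not follow Il12b. Its intensity was 75.6 after LPS, 108 after LOC1 and 91.2 after LOC3, lowest on the array where Il12b was highest. The log2 difference from LPS was 0.63 after LOC1 and 0.37 after LOC3, both short of 2-fold, and the probe is dim, with a technical SD of 0.28 and 0.31. The LOC3 value is within 2 technical SD of 0. Within IL-23, the difference of Il23a exceeded that of Il12b by 2.70 (technical SD 0.28) after LOC1 and by 2.16 (technical SD 0.31) after LOC3.

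Il27, the p28 chain, and Ebi3, its partner in IL-27, also lay on opposite sides of 0. The intensity of Il27 was 420 after LPS, 646 after LOC1 and 592 after LOC3, so that the array without lactobacilli was the lowest. Its log2 difference was 0.73 after LOC1 and 0.60 after LOC3, that is 1.66-fold and 1.52-fold, short of 2-fold but over 2 technical SD from 0, and 4.94% and 7.50% of all genes compared were higher still. Ebi3 is far brighter on its own probe, with 62783 after LPS, 27311 after LOC1 and 33025 after LOC3, and here the array without lactobacilli was the highest. Ebi3 fell by 1.09 after LOC1, which is 2.13-fold, while the LOC3 difference was -0.82, or 1.77-fold lower. The gap between the 2 chains of IL-27, Il27 less Ebi3, was 1.82 (technical SD 0.08) after LOC1 and 1.42 (technical SD 0.09) after LOC3. In each of the 2 pairs measured, the shared chain was the lower one with both strains. When arrays were scaled to their median, Ebi3 was at -0.87 after LOC1 and no longer past 2-fold.

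**Figure D2:**
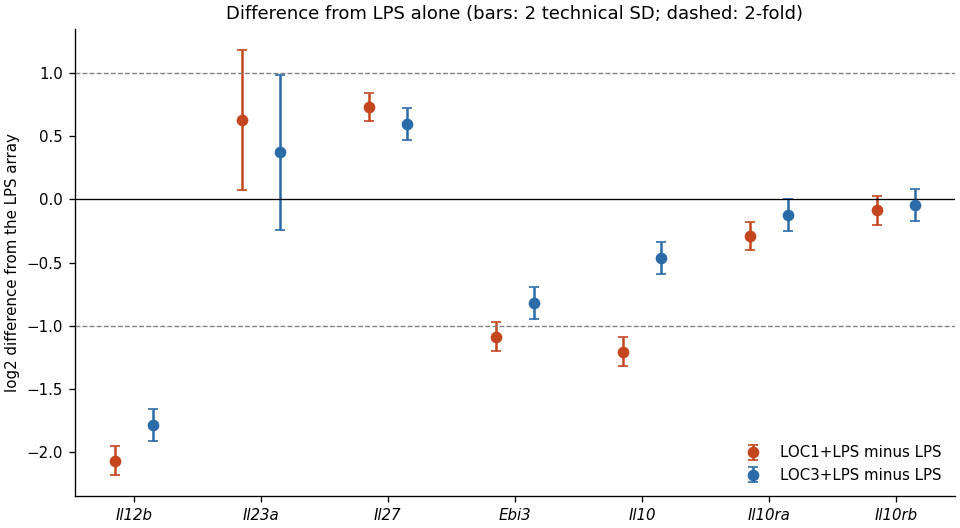
Log2 difference of LOC1+LPS and LOC3+LPS from the LPS array for the 7 measured genes, with bars of 2 technical SD (that of bright probes for all but Il23a) and dashed lines at 2-fold. Il12b and Ebi3 lie below 0 and their partners Il23a and Il27 above it with both strains, while Il10 is at -1.21 after LOC1 and -0.47 after LOC3.

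Il10 was the gene of the 7 compared for which the strains differed most. Its intensity was 2416 after LPS, 969 after LOC1 and 1628 after LOC3, so the LOC3 array lay between the others. Il10 fell by 1.21 after LOC1, or 2.31-fold, and its difference after LOC3 was -0.47, or 1.38-fold lower. Genes lower still made up 2.40% of those compared after LOC1 and 13.0% after LOC3. Scaled to the array medians, Il10 was at -0.99 after LOC1, just short of 2-fold. The study itself reported no IL-10 difference between macrophages with either strain and controls on its arrays, and no change with LOC1 by qPCR. Set directly against each other, LOC1 was 0.74 below LOC3 on the log2 scale for Il10, which is 1.67-fold.

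None of the 7 genes was past 2-fold between LOC1 and LOC3, where 2.63% of the 19381 genes compared were past it in either direction. After Il10, the LOC1 less LOC3 differences were -0.28 for Il12b, -0.27 for Ebi3 and 0.25 for Il23a. That of Ebi3 exceeds 2 technical SD of bright probes, at 0.06 each. That of Il23a does not, at a technical SD of 0.30, and neither does that of Il12b at this SD of dim probes. Il27 was at 0.13, Il10ra at -0.16 and Il10rb at -0.04. For all 7 genes the LOC3 array lay between the LOC1 array and the LPS array. Since the comparisons with LPS share the LPS array, they are not independent of each other.

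The IL-10 receptor chains had the smallest differences of the 7 genes with either strain. Il10ra, which binds IL-10, had an intensity of 11130 after LPS, 8427 after LOC1 and 9502 after LOC3 on its brighter probe. Its log2 difference was -0.29 after LOC1, and after LOC3 it was -0.12, which becomes 0.059 when arrays are scaled to their median. The dimmer probe, at 1143 after LPS, 829 after LOC1 and 922 after LOC3, gave -0.35 and -0.21, the same direction. Il10rb, the signalling chain that other cytokine receptors of the family share, had 7895 after LPS, 6872 after LOC1 and 7121 after LOC3. Its log2 differences of -0.09 and -0.05 turned to 0.13 and 0.14 with median scaling, so no direction is given for it. Median scaling raised the median of all genes by 0.22 after LOC1 and by 0.18 after LOC3, and relative to that median every gene kept its value, for example -1.09 for Ebi3 and -1.21 for Il10 after LOC1.

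The deposited table gives log2 ratios to unchallenged macrophages, in which 7.08% of the 56605 probes were listed as higher after LPS alone, and it places these differences on the scale of the LPS response. It lists 5 of the 9 probes, those of Il12b, Il23a, Il27, Ebi3 and Il10. For Il12b the authors' log2 ratio was 7.12 after LPS, 5.08 after LOC1 and 5.37 after LOC3. The unchallenged signal these imply is 5.43, below 16.3, the lowest intensity well above background on the LPS array. That limit stands in here and below for the limit of the unchallenged array, which is not known, and turns the ratios into bounds. With it, Il12b was at least 46.2-fold higher after LPS, at least 11.3-fold after LOC1 and at least 13.7-fold after LOC3. Even on the lower arrays Il12b was therefore well above the unchallenged level. For Il23a the authors' ratios were 4.61 after LPS, 5.27 after LOC1 and 5.02 after LOC3, again over an implied signal below background, which gives at least 4.63-fold, 7.33-fold and 6.16-fold.

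For Il10 the authors' log2 ratio was 4.60 after LPS, or 24.2-fold, 3.43 after LOC1, or 10.8-fold, and 4.17 after LOC3, or 18.0-fold, over an implied unchallenged signal of 99.7. Il10 was thus above the unchallenged level in all 3 groups and nearest to it after LOC1. Ebi3 began from a high implied signal of 13948 and its log2 ratio was 2.17 after LPS, or 4.50-fold, 1.12 after LOC1, or 2.17-fold, and 1.38 after LOC3, or 2.61-fold. Il27 showed the opposite order. Its ratio after LPS alone is blank in the table, where values under 2-fold are left out, and rebuilt from the intensities it was 0.95, or 1.93-fold, while the authors' ratios of 1.71 after LOC1 and 1.58 after LOC3 are 3.28-fold and 3.00-fold. Il27 was thus listed as past 2-fold over unchallenged cells with either strain and not after LPS alone.

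**Figure D3:**
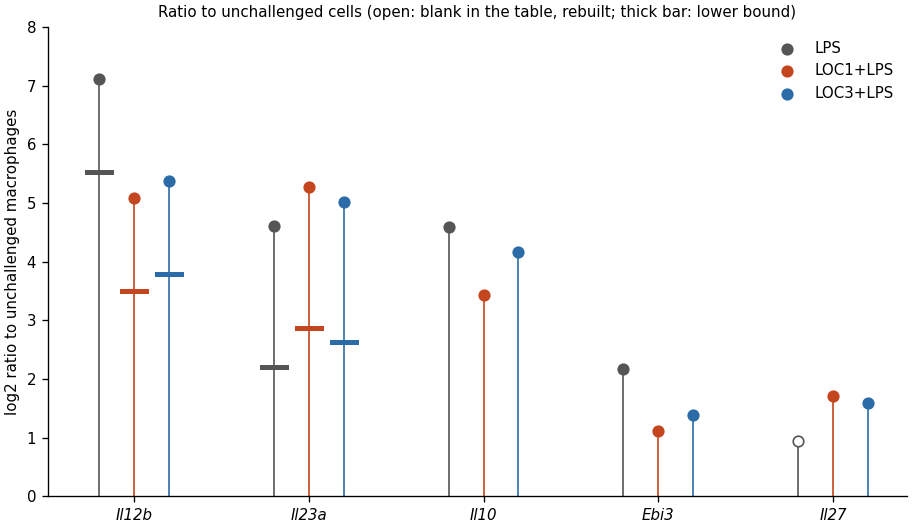
Log2 ratio of each array to unchallenged macrophages for the 5 listed genes, from the authors' table, with the open point for Il27 rebuilt because the table leaves it blank. Thick bars mark the lower bounds for Il12b and Il23a, whose implied unchallenged signal lay below the lowest detected signal of the LPS array. LPS alone is the highest of the 3 for Il12b, Il10 and Ebi3 and the lowest for Il23a and Il27.

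Genes that IL-10 is known to induce in macrophages lay below their LPS level with both strains. When arrays were scaled to their median, 1 of 9 did not after LOC1, and 1 of 9, another gene, did not after LOC3. Of the list of 9, all 9 were well above background. After LOC1 4 fell past 2-fold, against 3.81% of all genes compared, and after LOC3 2 fell, against 3.18%, and 0 rose. All 9 differences were below 0 with both strains, where 49.9% and 46.0% of all genes compared were. The list was chosen with earlier results of these data known, so these counts are no test. The median of the list was -0.83 after LOC1 and -0.44 after LOC3. Sbno2, a corepressor of inflammatory genes, was at 15854 after LPS, 4387 after LOC1 and 6614 after LOC3, and fell by 1.74 after LOC1 and fell by 1.16 after LOC3 (log2). Etv3, a transcriptional repressor, was at 1816, 567 and 611 in the same order, and fell by 1.57 after LOC1 and fell by 1.47 after LOC3. The other Etv3 probe, at 1300, 629 and 758, was at -0.93 and -0.67, short of 2-fold with both strains.

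Bcl3, an atypical IkB protein that holds p50 dimers on DNA, was at 45038 after LPS, 16617 after LOC1 and 23337 after LOC3. It fell by 1.33 after LOC1, and its LOC3 difference was -0.84. Il4ra, the IL-4 receptor chain, fell by 1.02 after LOC1, and was at -0.76 after LOC3, but its dimmer probe was at -0.10 and 0.09. Of those not past 2-fold, Socs3, the feedback inhibitor of cytokine signalling, was at -0.83 after LOC1 and -0.44 after LOC3, and Il1rn, the IL-1 receptor antagonist, at -0.21 and -0.30. The 5 probes of Sbno2 ranged from -1.77 to -0.28 after LOC1 and from -1.23 to -0.39 after LOC3, all below 0. With median scaling 3 of the list were past 2-fold after LOC1 and 1 after LOC3, and 8 of 9 lay below 0 with each. In the direct comparison, 8 of the 9 were lower after LOC1 than after LOC3 and 0 were past 2-fold. Several of these genes also respond to LPS itself, so their part in IL-10 signalling in these cells was not tested.

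The other ligands of the IL-10 family were few. Of 9 ligand and receptor genes, 3 were well above background on all 3 arrays. Il19, a cytokine encoded beside Il10, was at 8112 after LPS, 3620 after LOC1 and 6280 after LOC3. Il19 fell by 1.05 after LOC1, and after LOC3 it was at -0.27, with the LOC3 array between the others as for Il10. Over unchallenged cells the authors' log2 ratio of Il19 after LPS was 11.34, a bound of at least 497-fold because the implied signal was below background. Il20, a related cytokine, was dim, at 31.4 after LPS, 30.9 after LOC1 and 58.9 after LOC3, and rose by 1.01 after LOC3 at a technical SD of 0.31.

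None of the receptors, kinases and transcription factors around these cytokines that could be compared was past 2-fold on its brightest probe. Over all genes compared, 2.49% were higher and 3.81% lower after LOC1, and 2.97% and 3.18% after LOC3. Counts of 0 in lists this short are therefore no result about these genes. Of the 5 receptor genes of the IL-12 family, 3 were compared and 0 were past 2-fold. Il12rb1, the chain that IL-12 and IL-23 share as receptor, was at 0.79 after LOC1 and 0.60 after LOC3, and Il23r, the chain that binds IL-23, at 0.45 and 0.57, both dim. Of the 6 kinases and STATs, 5 were compared and 0 were past 2-fold, with medians of 0.25 and 0.24. Among these was Stat3, the factor through which IL-10 acts, at 0.03 after LOC1 and 0.23 after LOC3 on its brightest probe, while a dim probe gave -0.89 and 0.86.

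All 9 transcription factors known to act on IL-12 family genes were compared and 0 were past 2-fold, with medians of 0.38 after LOC1 and 0.36 after LOC3. Irf1 was at 0.44 and 0.36, and Rel, the NF-kB chain tied to Il12b, at 0.51 and 0.62, on the other side of 0 from Il12b. Irf8, which acts on Il12b in macrophages, was at -0.68 after LOC1 and -0.39 after LOC3 on its brighter probe, and its dimmer probe was at -1.83 and -1.57. All 8 factors of Il10 were compared and 0 were past 2-fold, with medians of -0.24 and -0.10. Maf, a known activator of Il10, was at 0.01 and 0.16 on its brightest probe. Its dimmer probes lay on the other side of 0, at -0.56 and -0.32 and at -0.73 and -0.72, so no direction is given for Maf.

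**Figure D4:**
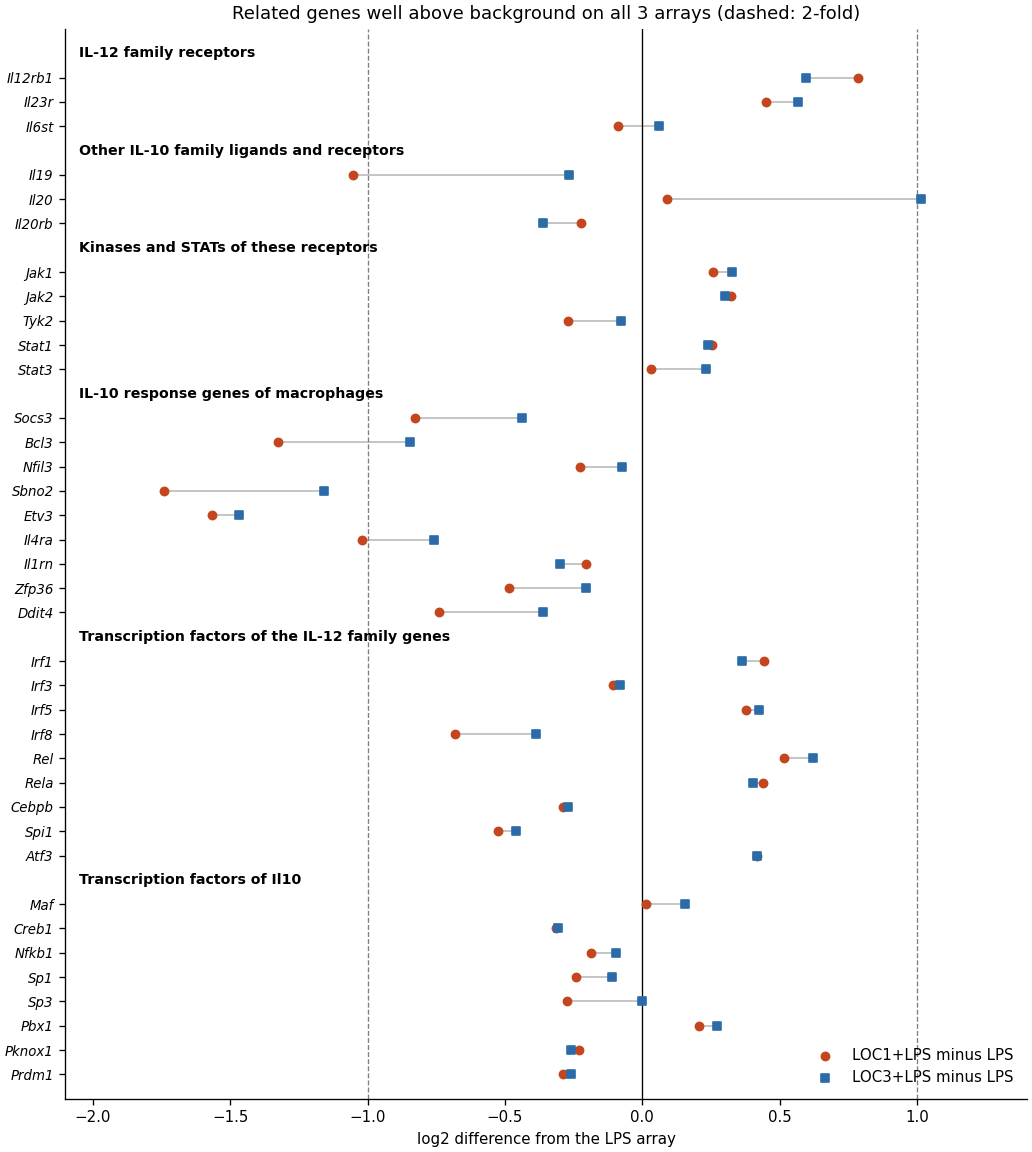
Log2 difference from the LPS array after LOC1 (circles) and LOC3 (squares) for the brightest probe of the related genes that were well above background on all 3 arrays, by list, with dashed lines at 2-fold. All 9 IL-10 response genes lie left of 0 with both strains, and all kinases, receptors of the IL-12 family and transcription factors lie between the dashed lines.

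Among 17405 genes detected above background on every array, those whose pair of differences lay nearest to that of Il12b were Arhgef39, at a distance of 0.01 on the log2 scale, the transcript ENSMUST00000103426 at 0.02 and Speer4a at 0.08. Arhgef39, a guanine nucleotide exchange factor, was at 438 after LPS, 96.8 after LOC1 and 117 after LOC3. Nearest to Il10 were Fcrlb at 0.09, Slc2a13 at 0.10 and AK037628 at 0.11, whose LPS intensities of 45.9, 45.8 and 53.3 are dim. The likeness rests on 2 differences that share the LPS array.

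The RNA carried macrophage markers throughout, and 8 of 8 were well above background on each array, with summed intensities of 455893 after LPS, 337997 after LOC1 and 373175 after LOC3. Of the 8 log2 differences, 6 were below 0 and 2 above it after LOC1, and 5 were below and 3 above after LOC3. On the brightest probe of each, only Fcgr3, an IgG receptor, was past 2-fold, and it fell by 1.65 after LOC1 and fell by 1.42 after LOC3. Csf1r was at -0.89 and -0.70, and its dimmer probe at -1.03 and -0.94. The Ptprc probes above background on all arrays ranged from -1.86 to 0.05 after LOC1 and from -1.56 to 0.13 after LOC3. Adgre1, which encodes the surface protein F4/80, was at 0.57 and 0.38, and Cd68 at 0.30 and 0.27. Dendritic cells also make p40. Of their 3 markers all 3 were well above background after LPS and 1, Zbtb46, with each strain, with summed intensities of 666, 335 and 292. Zbtb46 made up most of that sum at 591, 320 and 281, and was at -0.77 after LOC1 and -0.97 after LOC3. Flt3 and Xcr1 were dim, at 25.5 and 49.4 after LPS. Xcr1 was at -1.65 or lower after LOC1 and -1.21 or lower after LOC3, and Flt3 at -0.70 and -0.26 or lower. The RNA came from a macrophage line, so these transcripts do not count dendritic cells. T cell markers were above background for 3 of 5 on each array (summed 3556, 5418 and 5321), with Cd3g and Cd8a on none. Lck, a kinase, made up most of that sum at 3086, 4935 and 4812, while Cd3e was at 396, 416 and 451 and Cd3d at 66.4, 60.3 and 42.9. Ms4a1, a B cell marker, was dim at 29.0 after LPS and 55.9 after LOC1, rose by 1.06 after LOC1, and was not well above background after LOC3. Epithelial markers were above background for 1 of 3 after LPS alone (summed 28.4, 13.6 and 13.7). The part of these markers in the differences of Il12b, Ebi3 and Il10 was not tested.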

How the data were processed

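Total RNA of RAW264.7 macrophages was labelled with Cy3 and hybridised to 1-colour Agilent mouse arrays (1 for each condition). Spot intensity was deposited by the authors as background-subtracted and detrended by Feature Extraction (12.0.3.1 in the file headers), without normalization between arrays. The log2 ratios to unchallenged macrophages were deposited by the authors after GeneSpring normalization, with values under 2-fold blank. Each equals log2 intensity less a reference shared by the 3 arrays, up to 1 constant per array, and all 12931 blanks, rebuilt in this way, were under 2-fold. The submitters' processing notes name limma and R 3.2.5. The sources differ on the time with lactobacilli (longer in the methods than in the labels) and on the LPS dose.

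Outlier spots were left out (LPS 135, LOC1 118 and LOC3 133), spots of a probe were averaged, and log2 intensity less the 75th percentile of all non-control spots of an array was compared. A gene stood by its brightest probe, was compared if 1 or both arrays detected it well above background, and weaker signals were set to the lowest one so detected. The threshold was 2-fold. The percentages of genes lower or higher place a gene among all genes compared on the same pair of arrays and are no test. Technical SD came from probes printed 10 times. The methods' t-test could not be run here, and having 1 array per condition limits precision. The 8 genes, gene lists and alternatives were chosen with earlier results of these data known. Named are the 8 genes, each related gene past 2-fold with examples of the rest, the 3 nearest genes to Il12b and to Il10, and marker genes. Alternatives were median, quantile and detected-probe scaling, normexp with an offset of 50, the deposited ratios, detection on both arrays, no filter, the mean of probes, outliers kept, 3-fold, and a raised unchallenged signal. The B cell marker list is not reported as a list here. The calculation was tested on simulated data. Python 3.11.15, numpy 2.4.6, pandas 2.3.3, matplotlib 3.10.9, R 4.3.3 and limma 3.58.1 were used.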

Additional observations from a re-analysis of the deposited data

How the results depend on the processing

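Over 9 alternative settings, 120 values of the 7 genes were recomputed, since 3 of the genes have no difference between deposited ratios. None that was past 2-fold changed sign, 98 moved by less than the technical SD used for the gene and 22 by more. Many of the 98 could not move. Detection on both arrays, no filter and outliers kept returned every main value, and the mean of probes changed only Il10ra, the gene with a pair of probes. The number past 2-fold with LOC1, 3 of 7, became 1 (Il12b) with median scaling and 1 (Il12b) at a threshold of 3-fold, and the number with LOC3 was 1 under every setting that was run. Median scaling gave, with LOC1, Il12b -1.85, Il27 0.95, Ebi3 -0.87, Il10 -0.99, Il10ra -0.072 and Il10rb 0.13, and with LOC3, Il12b -1.60, Il27 0.78, Ebi3 -0.64, Il10 -0.28, Il10ra 0.059 and Il10rb 0.14. By its construction it adds 1 shift to every gene of a comparison, as do detected-probe scaling and the deposited ratios. Quantile normalization gave Ebi3 -1.20 and Il10ra -0.35 with LOC1, and Ebi3 -0.97, Il10ra -0.22 and Il10rb -0.13 with LOC3. Normexp background correction gave Il12b -1.73, Il27 0.66 and Il10 -1.14 with LOC1, and Il12b -1.52 and Il27 0.53 with LOC3, and the cause was not tested. Raising the unchallenged signal to the lowest one above background on the LPS array changed the log2 ratio with LPS from 7.12 to 5.53 for Il12b and from 4.61 to 2.21 for Il23a. No paired analysis was possible because each condition has 1 array, and for the same reason no array could be left out. Signal over background limits Il12a, which gave no difference, and Il23a, whose technical SD was 0.28 and 0.31.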

Other observations

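Probes of 1 gene did not always give the same value, and 2 regulators close to these cytokines show it. Irf8, a factor of the interferon regulatory family that acts on Il12b, was at -0.68 with LOC1 and -0.39 with LOC3 on its brighter probe (8073 with LPS, 4655 with LOC1 and 5745 with LOC3). Its other probe was at 631, 165 and 197, and fell by 1.83 with LOC1 and fell by 1.57 with LOC3, past 2-fold with both strains. The brighter probe decides how Irf8 was counted, so it stood among the genes not past 2-fold. Stat3 was at 0.03 and 0.23 on its brightest probe, whereas a dim probe (32.9 with LPS, 16.4 with LOC1 and 55.8 with LOC3) gave -0.89 and 0.86.

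Il23r, the receptor chain that binds IL-23, was at 205 with LPS, 258 with LOC1 and 282 with LOC3. The authors' log2 ratio to unchallenged macrophages with LPS was 5.93, a bound of at least 12.5-fold because the implied unchallenged signal was below background. The Il23r transcript was thus listed as higher with LPS in a macrophage line, beside the Il23a and Il12b chains of its ligand, whereas for Il12rb1, the partner chain of that receptor, the authors' log2 ratio with LPS was -1.04. Il12rb2, the second chain of the IL-12 receptor, and Il27ra were not well above background on any array.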
